A study of Mus musculus with 6 samples.

Results

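The extracellular matrix genes examined here are the non-collagen structural and matricellular proteins of muscle connective tissue, together with the enzymes that cross-link, cleave or protect that matrix. They were listed by gene symbol: every numbered Mmp, Timp, Adamts and Adamtsl gene, Lox and its 4 Loxl relatives, and a list of proteoglycans, glycoproteins and matricellular proteins. The rule found 76 genes among the 24411 of the table. RNA was sequenced from the EDL (extensor digitorum longus, a fast-twitch muscle of the lower leg) of 3 mAktDKO and 3 control floxed mice, all C57BL/6J and 50 weeks old, with no treatment named in the labels. Both groups carried the floxed Akt1 and Akt2 alleles, and the mAktDKO mice (labelled mAktKO) also carried Cre recombinase knocked in behind the Mlc1f promoter. That promoter drives Cre mainly in fast-twitch myofibres and little in satellite cells, so the fibroblasts, tendon cells and leukocytes that lie between the fibres were not the cells targeted. The labels number separate samples without saying whether muscles of several mice were pooled, and each library is treated here as 1 mouse. The mAktDKO columns carry the numbers 1 to 3 of the labels, whereas the control columns carry 2 to 4, and these column numbers name the control mice below.

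The matrix of muscle is laid down mostly by fibroblasts and fibro-adipogenic progenitors within the muscle and by tendon cells at its ends. Collagen fibrils form its scaffold. Small leucine-rich proteoglycans coat the fibrils and set their diameter, fibrillins and elastin give elasticity, matricellular proteins modulate how cells attach, and lysyl oxidases cross-link collagen and elastin. Matrix metalloproteinases and Adamts proteases cut these components, and tissue inhibitors of metalloproteinases (Timp proteins) block the cutting.

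Values are in CPM, counts scaled to 1e6 of the TMM-adjusted library total, from the estimated counts deposited by the authors. Total counts ranged from 13738795 to 15445523 per mouse, where 3 counts, taken as the floor of detection for counting error only, equal 0.180 to 0.227 CPM. Differences are log2 fold changes of mAktDKO over control from edgeR's quasi-likelihood test, fitted on the 12892 genes that passed a filter on low counts, with adjusted p-values (Benjamini-Hochberg) over all of them. The targeted genes came first: Akt2 (chr7:27591552-27640826) was 51.3, 49.1 and 52.7 CPM with the deletion and 172.1, 133.1 and 142.6 CPM without it, a log2 fold change of -1.55 (SE 0.11, adjusted p = 0.000923). Akt1 (chr12:112653821-112674884) was 58.9, 56.8 and 51.4 CPM against 66.4, 65.5 and 66.5 CPM, a log2 fold change of -0.25 (SE 0.080, adjusted p = 0.115). The mAktDKO mice lay below the controls for both genes, but the gene-level counts do not show how much of the deleted part of Akt1 remained. No pair of columns was a copy of another (chi-square per degree of freedom between 7.64 and 69.9).

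A control mouse stood apart in these genes. Control mouse 2 had the lowest level of the 6 mice in 42 of the 64 matrix genes tested, whereas it was lowest in 28.8% of all genes tested. Among the 3 controls it was lowest in 46 of the 64, against 37.4% of all genes tested. The summed level of the 76 genes was 8561, 9597 and 9195 CPM in mAktDKO muscle and 5079, 6513 and 7894 CPM in control mice 2, 3 and 4, which is 0.856%, 0.960% and 0.920% against 0.508%, 0.651% and 0.789% of the scaled counts. The groups did not overlap, but the control sums spanned a wider range than the mAktDKO sums. A second departure, found after the data were seen, joined mAktDKO mouse 2 and control mouse 4, which shared high levels of Mmp13, Mmp9 and bone genes. Results are therefore given for all 6 mice and, where it matters, without control mouse 2 and without mAktDKO mouse 2 and control mouse 4 together.

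**Figure D1:**
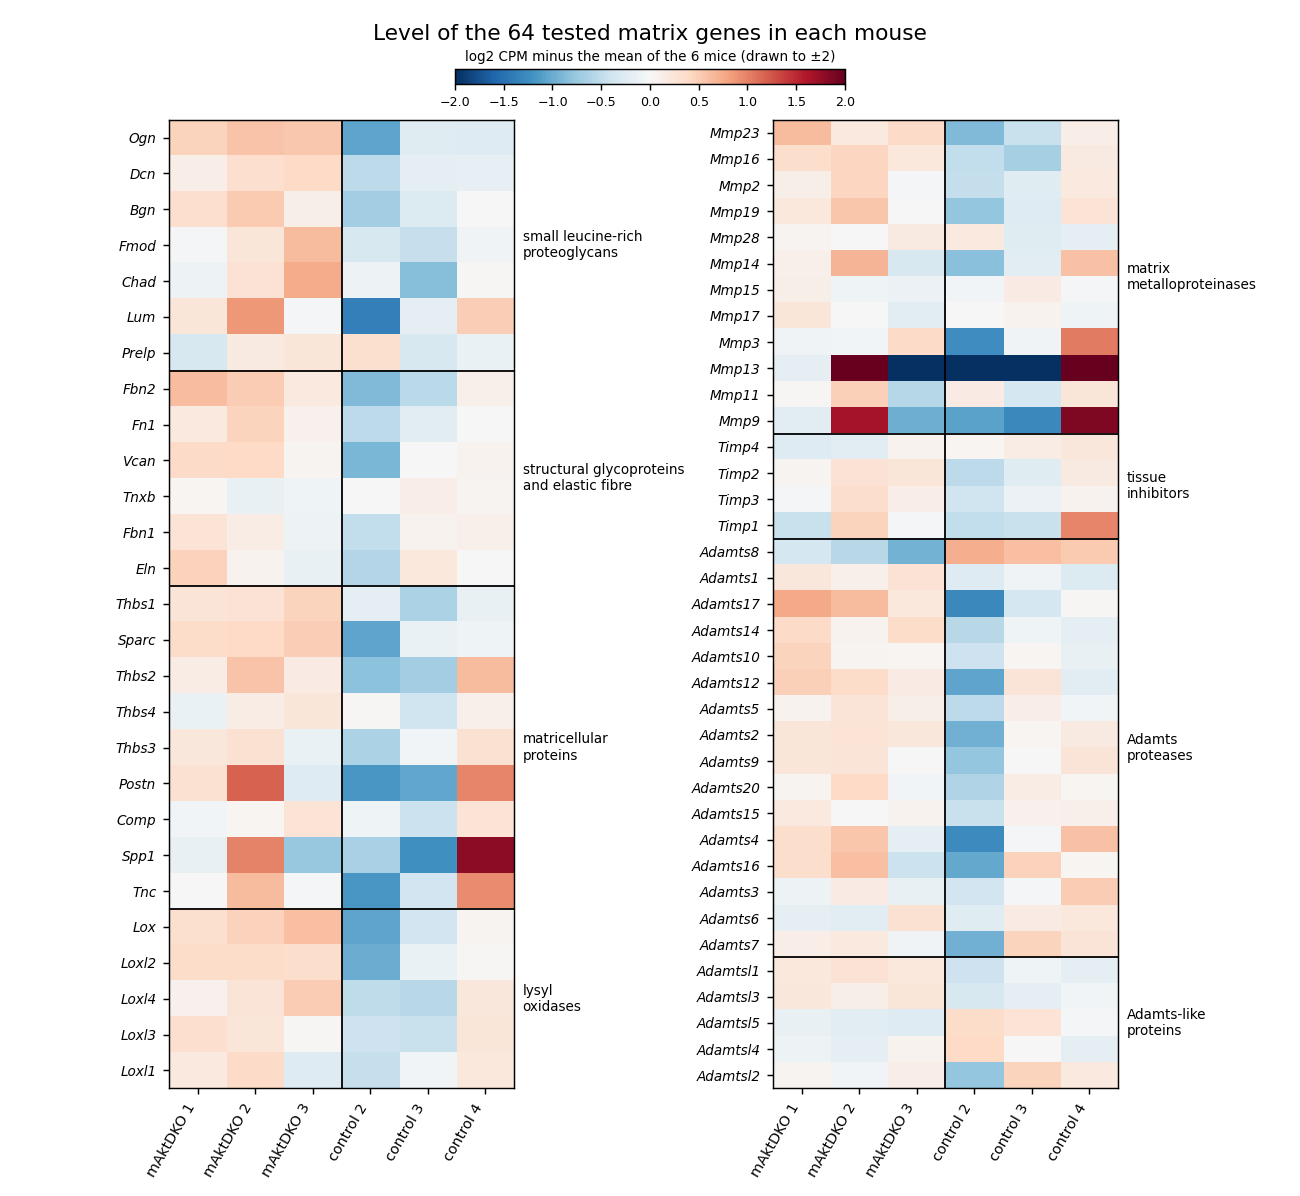
Level of each tested matrix gene in each mouse, as log2 CPM minus its mean over the 6 mice (colour drawn to 2 either side of 0; rows are genes by role, columns are mice, the vertical line parts the genotypes). Control mouse 2 has the most blue cells, being the lowest mouse in 42 of 64 genes, and mAktDKO mouse 2 and control mouse 4 share the dark red cells of Mmp13 and Mmp9.

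Among the 64 tested members, Ogn was higher and Adamts8 was lower in the mAktDKO mice at an adjusted p under 0.05, and 0 members passed 0.01. Over all genes tested, 1.18% passed 0.05 (0.264% higher and 0.915% lower) and 0.0233% passed 0.01. With all 6 mice the fitted change was above 0 for 52 members and below 0 for 12, with a median of 0.31 against 0.017 for all tested genes. At an unadjusted p under 0.05, 20 members were higher and 3 lower, where 11.4% of all genes were higher and 13.1% were lower. That near-even background depended on the scaling: with library totals in place of TMM, 28 members were higher and 2 lower, against 23% and 5.02% of all genes. The groups did not overlap for 19 members that were higher, compared with 14.6% of all genes, and for 2 that were lower, compared with 16.6% of all genes. DESeq2's Wald test, the tool named in the study's methods, was run on 17357 genes, 71 members among them. At 0.05 it called 14 of the 71 members and 785 of the 17357 genes. At 0.01 it called 8 members and 338 genes. Without control mouse 2 the members' median was 0.18, 46 were above 0 and 18 below, and Sparc and Thbs1 joined Ogn and Adamts8 at 0.05, with 1.1% of all genes passing (0.312% higher and 0.792% lower) and 0.0609% passing 0.01. At an unadjusted p under 0.05, 17 members were then higher and 3 lower, against 9.05% and 10.2% of all genes, and 20 were higher and 6 lower without overlap, against 19.2% and 19.5%. Control mouse 4 moved the count of calls more than any other mouse, with 12 members and 388 of 13127 genes passing 0.05 when it was left out, and 37 members higher and 2 lower at an unadjusted p under 0.05 (12.5% and 13.3% of all genes). Bgn, Dcn, Fbn2, Lox, Loxl3, Loxl4, Mmp23, Thbs1, Thbs2 and Adamtsl5 then joined Ogn and Adamts8. When any 1 of the mAktDKO mice or control mouse 3 was left out, 0 members passed, and 4, 3, 5 and 26 of all genes did. Without mAktDKO mouse 2 and control mouse 4 together the median was 0.47, with 55 of 63 members above 0, and 0 members passed 0.05 (0.0541% of all genes did, 0.0155% higher and 0.0386% lower), while 27 were higher and 2 lower at an unadjusted p under 0.05 by edgeR (7.74% and 8.38% of all genes). In that fit 36 members were higher and 2 lower without overlap, against 24.6% and 25.4% of all genes. CPM is a share of each library's RNA, so amounts per muscle or per cell were not measured. The paper reports a lower fast-twitch muscle mass in mAktDKO mice. In whole muscle, more matrix-producing cells, more RNA per cell and a smaller share of fibre RNA cannot be told apart.

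**Figure D2:**
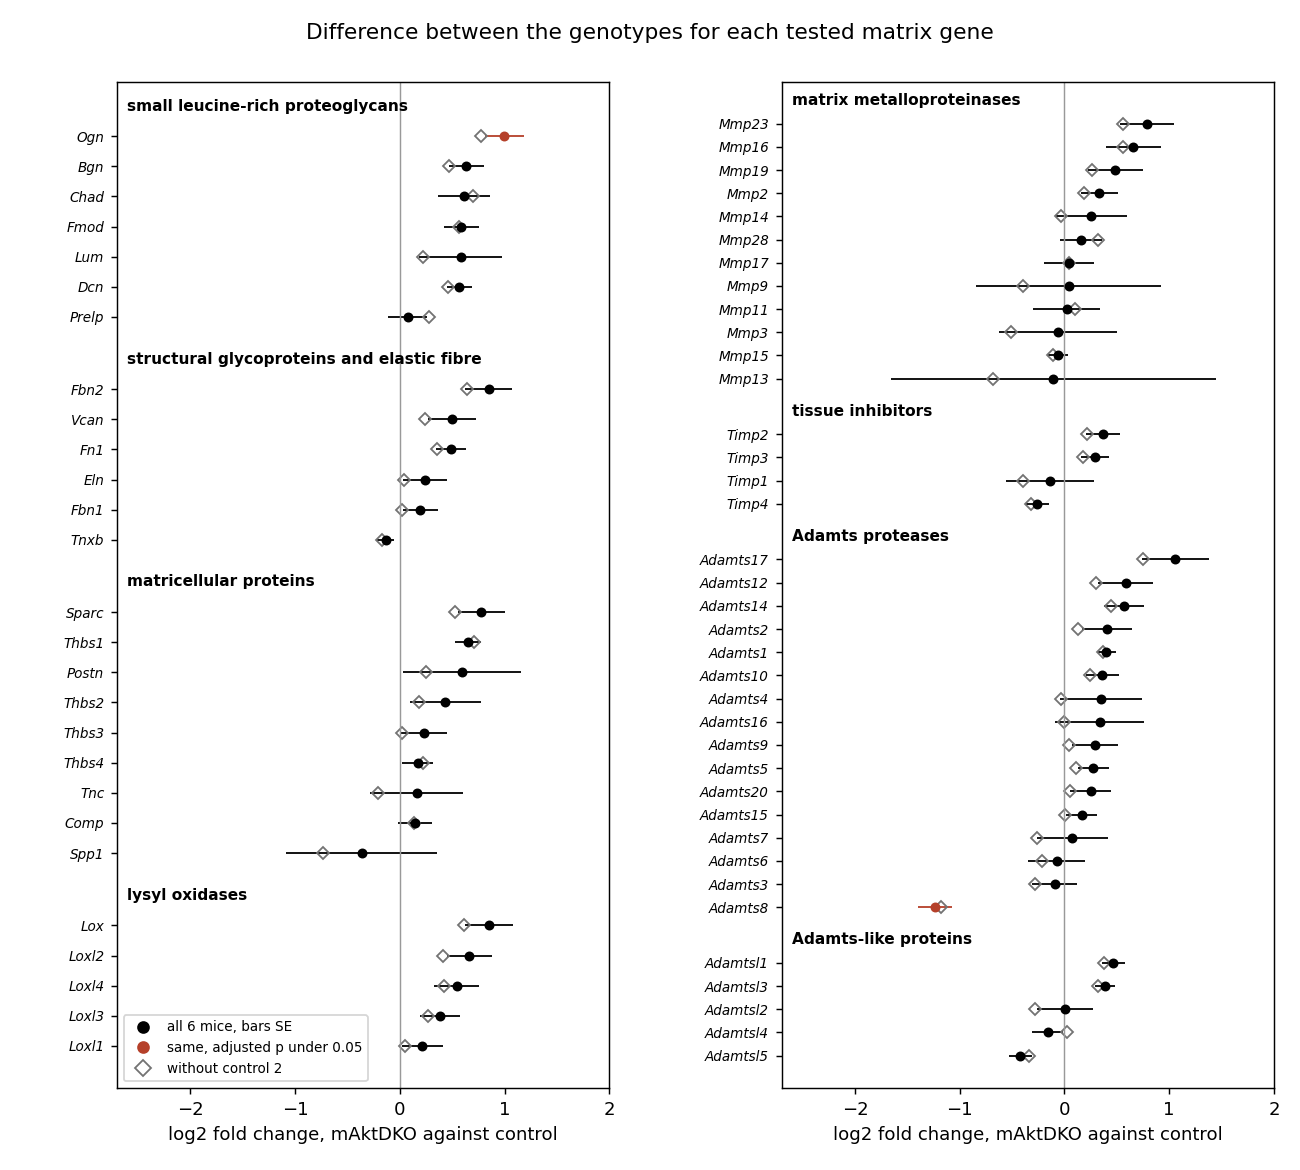
Log2 fold change of mAktDKO over control for the 64 tested matrix genes, ordered by role, from edgeR with all 6 mice (filled circles, bars are 1 SE) and without control mouse 2 (open diamonds). Red marks an adjusted p under 0.05, reached by Ogn and Adamts8 with all mice, and most diamonds lie nearer to 0 than their circles.

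The small leucine-rich proteoglycans gave the highest median of any role group with all 6 mice, though lysyl oxidases were higher without mAktDKO mouse 2 (0.57 against 0.55), without control mouse 4 (0.84 against 0.78, with matricellular proteins at 0.94) and without both (0.86 against 0.73). All 7 were tested, all 7 had a fitted change above 0 (median 0.59), and 4 were higher without overlap between the groups (14.6% of all genes tested were). Ogn (osteoglycin, also called mimecan; chr13:49608015-49624501), which regulates collagen fibril assembly, was 129.7, 142.0 and 138.6 CPM in mAktDKO muscle. In control mice 2, 3 and 4 it was 45.9, 80.2 and 79.5 CPM, so that the lowest mAktDKO mouse stood well above the highest control. The means were 136.8 ± 6.38 and 68.5 ± 19.6 CPM (SD, n = 3 each), a 2.00-fold difference (log2 fold change 1.00, SE 0.19, edgeR adjusted p = 0.0474). Without control mouse 2 the change was 0.78 with a smaller error (SE 0.079, adjusted p = 0.00598), and Ogn was the 1 member that passed 0.01. The call at 0.05 was lost without control mouse 3 or any 1 of the mAktDKO mice (adjusted p = 0.0842 to 0.22) and with upper-quartile scaling (adjusted p = 0.0501). The 250 bases before the Ogn start site, the promoter of the member with the clearest increase, are given from RefSeq (GRCm38.p6, chr13:49607765-49608014, plus strand), with capitals on the letters GGAATG (the core bound by TEAD factors) and ACCACA (the core bound by Runx factors).
Ogn: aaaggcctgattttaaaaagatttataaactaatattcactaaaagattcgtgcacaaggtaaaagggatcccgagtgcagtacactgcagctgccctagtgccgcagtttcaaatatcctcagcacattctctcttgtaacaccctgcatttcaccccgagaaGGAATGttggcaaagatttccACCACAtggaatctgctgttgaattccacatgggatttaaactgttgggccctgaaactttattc
GGAATG lies at -86 to -81 and ACCACA at -65 to -60, counted back from -1 just before the start site, with no overlap between them. On either strand, GGAATG occurred in 12.6% and ACCACA in 14.2% of 27025 promoters of this length, so a match alone is common.

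Dcn (decorin; chr10:97479500-97518163), the classical collagen-binding proteoglycan, was 587.1, 670.0 and 698.8 CPM in mAktDKO and 372.3, 468.6 and 477.3 CPM in control muscle. Every mAktDKO mouse lay above every control, but the adjusted p missed the threshold (log2 fold change 0.57, SE 0.12, adjusted p = 0.0539). Bgn (biglycan; chrX:73483601-73495936), its closest relative, was 235.9, 268.4 and 203.7 CPM against 115.6, 155.5 and 185.1 CPM (0.63, SE 0.17, adjusted p = 0.0781). Fmod (fibromodulin; chr1:134037254-134048280), which guides fibril growth and cross-linking in tendon, was 698.5, 844.8 and 1105 CPM against 567.1, 519.1 and 675.5 CPM (0.59, SE 0.17, adjusted p = 0.0909). The Fmod groups were parted by a narrow gap, between mAktDKO mouse 1 and control mouse 4. Per kilobase of exon, Fmod ranked first in the group, with a mean of 222.3 CPM per kb over the 6 mice. Dcn followed at 93.5 CPM per kb. The exon length merges the exons of every annotated transcript, and this ranking depends on it. Chad (chondroadherin), a leucine-rich protein of cartilage and tendon, overlapped between the groups, at 88.1, 115.7 and 158.5 CPM against 87.7, 52.4 and 96.5 CPM (0.61, SE 0.25, adjusted p = 0.176). Lum (lumican), which also coats fibrils, ranged from 55.9 to 105.1 CPM in mAktDKO and from 22.2 to 81.3 CPM in control muscle, and its change of 0.58 had an SE of 0.39. Prelp was close to even, at 73.9 ± 14.8 and 70.2 ± 16.5 CPM (SD, n = 3 each). Without control mouse 2 the group's median was 0.47, with all 7 still above 0. Without mAktDKO mouse 2 and control mouse 4 together, 6 were above 0 and Prelp was below it (-0.046).

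**Figure D3:**
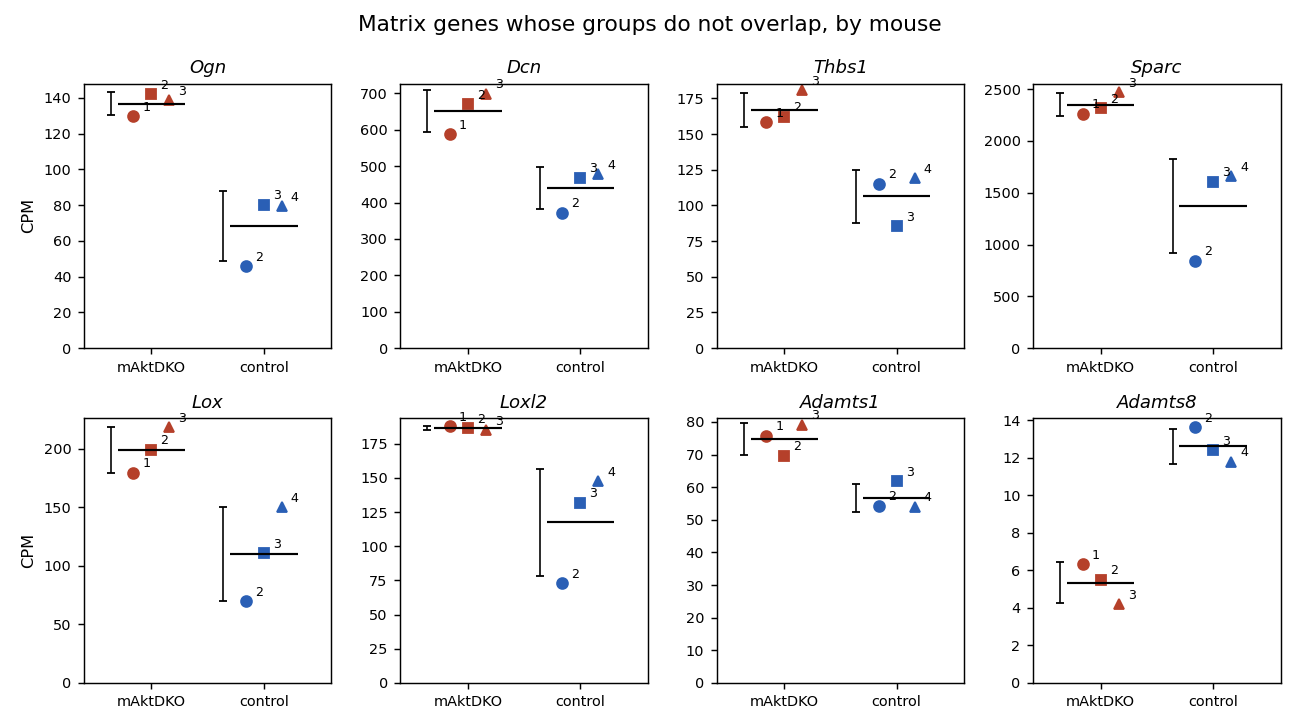
CPM of 8 matrix genes in each mouse (linear axes from 0; mAktDKO red, control blue, numbers name the mice, horizontal lines are group means and the bars beside them are SD, n = 3). The groups do not overlap in any panel, and control mouse 2 lies well below the other controls for Ogn, Sparc, Lox and Loxl2 but not for Thbs1, Adamts1 or Adamts8.

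Of the 6 structural glycoproteins and elastic fibre genes, 5 were above 0, as were 6762 of all 12892 genes tested. Fbn2 and Fn1 were higher without overlap between the groups, compared with 14.6% of all genes tested. Fbn2 (fibrillin-2; chr18:58008623-58210572), a microfibril protein best known from development, was 22.8, 21.3 and 17.1 CPM in mAktDKO and 7.97, 10.2 and 15.9 CPM in control muscle (log2 fold change 0.85, SE 0.23, adjusted p = 0.0805). Fn1 (fibronectin; chr1:71585473-71653280), on which cells and other matrix proteins assemble, was 651.4, 773.7 and 603.1 CPM against 395.1, 486.5 and 567.0 CPM (0.49, SE 0.14, adjusted p = 0.0992). In both genes control mouse 4 came close to the lowest mAktDKO mouse. The adult fibrillin Fbn1 showed no such separation, at 546.9, 502.6 and 425.3 CPM against 321.1, 478.0 and 488.0 CPM (0.20, SE 0.16). Eln (elastin) was 108.4 ± 24.2 and 92.0 ± 24.3 CPM (SD, n = 3 each). Vcan (versican), a large hyaluronan-binding proteoglycan, was 44.0 ± 5.68 and 31.2 ± 10.5 CPM, with control mouse 2 alone at 19.2 CPM and the other 2 controls at 36.4 and 38.1 CPM. Tnxb (tenascin-X) was the 1 member of this group below 0, with a log2 fold change of -0.14 (SE 0.083). Without control mouse 2 the group's median was 0.14 in place of 0.36.

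Among the 9 matricellular proteins, Thbs1 and Sparc were higher without overlap between the groups, compared with 14.6% of all genes tested. Thbs1 (thrombospondin-1; chr2:118111876-118127133), an activator of latent TGF-beta, was 158.5, 162.2 and 180.6 CPM in mAktDKO and 115.1, 85.3 and 119.0 CPM in control muscle. Here control mouse 3, not control mouse 2, was the lowest, and the change was 0.65 with all mice (SE 0.13, adjusted p = 0.0506) and 0.71 without control mouse 2 (SE 0.13, adjusted p = 0.0473). Sparc (osteonectin; chr11:55394159-55420080), a collagen-binding protein, was the most abundant member, with a mean of 491 CPM per kb. It was 2264, 2315 and 2472 CPM in mAktDKO and 844, 1606 and 1659 CPM in control muscle, the control mouse at 844 CPM being control mouse 2. Sparc made up between 24.1% and 26.9% of the members' summed CPM in the mAktDKO mice, 24.7% and 21.0% in control mice 3 and 4, and 16.6% in control mouse 2. Its change was 0.78 (SE 0.22, adjusted p = 0.0907) with all mice and 0.52 without control mouse 2, where the spread was narrower (SE 0.097, adjusted p = 0.0443). The other thrombospondins overlapped: Thbs2 was 134.5 ± 23.0 and 99.7 ± 60.8 CPM, Thbs3 was 15.3 ± 2.41 and 13.0 ± 4.07 CPM, and the tendon protein Thbs4, the second most abundant member of this group per kilobase at 128.4 CPM per kb, was 447.4 ± 59.4 and 397.4 ± 69.8 CPM (SD, n = 3 each). The change of Thbs2 depended on control mouse 4, being 0.43 (adjusted p = 0.452) with all mice and 1.06 (edgeR adjusted p = 0.031) when that mouse was left out. Comp, also called thrombospondin-5 and found in cartilage and tendon, was 62.7 ± 7.48 and 56.7 ± 13.7 CPM. Postn, Spp1 and Tnc varied more within each group than between them and are described with Mmp13 below.

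All 5 lysyl oxidases were tested and all had a fitted change above 0, with a median of 0.54 (0.41 without control mouse 2). Lox (chr18:52516060-52529867), the founding cross-linking enzyme, was 179.4, 199.1 and 218.4 CPM in mAktDKO and 69.8, 110.7 and 149.9 CPM in control muscle (log2 fold change 0.85, SE 0.23, adjusted p = 0.0806; 0.61 without control mouse 2, adjusted p = 0.0659). Loxl2 (chr14:69608692-69695834), which cross-links collagen IV in basement membranes, was 187.9, 186.4 and 184.9 CPM in mAktDKO muscle, the tightest triplet of the set. In the controls it was 73.1, 132.0 and 147.7 CPM, so the spread lay in the control group (0.66, SE 0.21, adjusted p = 0.114). Loxl4 was 13.1 ± 1.97 and 8.99 ± 2.96 CPM (0.54, SE 0.21, adjusted p = 0.168), and its groups overlapped at control mouse 4, without which the change was 0.84 (edgeR adjusted p = 0.0423). Loxl3 was 14.9 ± 1.61 and 11.4 ± 3.32 CPM, and Loxl1, which acts on elastin, was 35.8 ± 7.84 and 31.0 ± 7.10 CPM (SD, n = 3 each).

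The 21 matrix metalloproteinases were mostly faint. Only 12 passed the filter, and Mmp7, Mmp20 and Mmp21 had 0 counts in every mouse. Mmp8, Mmp10, Mmp12, Mmp24, Mmp25 and Mmp27 had between 0 and 6 counts in any mouse. Mmp2 (gelatinase A), made by fibroblasts, was the most abundant, with 43.0 CPM per kb, and was 153.3, 190.9 and 140.0 CPM in mAktDKO and 102.1, 119.6 and 163.2 CPM in control muscle (0.33, SE 0.17, adjusted p = 0.271). Its membrane-bound activator Mmp14 was 51.9, 78.0 and 38.8 CPM against 27.1, 42.0 and 73.0 CPM. In both genes mAktDKO mouse 2 and control mouse 4 were the highest of their groups. A pair of scarcer enzymes among the 12 tested were higher without overlap between the groups, compared with 14.6% of all genes tested. Mmp23 was 6.47, 4.79 and 5.42 CPM against 2.17, 2.99 and 4.54 CPM (0.79, SE 0.26, adjusted p = 0.123), and Mmp16, a membrane-type enzyme, was 3.11, 3.30 and 2.81 CPM against 1.68, 1.46 and 2.72 CPM (0.66, SE 0.26, adjusted p = 0.172). Mmp19 (0.49) and Mmp28 (0.16) overlapped, and the fitted changes of Mmp3, Mmp11, Mmp15 and Mmp17 lay between -0.07 and 0.04. The median of the 12 was 0.098 with all mice, and 0.031 without mAktDKO mouse 2 and 0.75 without control mouse 4, the lowest and highest when 1 mouse was left out.

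Mmp13 (collagenase-3; chr9:7272514-7283333), which cuts fibrillar collagen and is characteristic of hypertrophic cartilage and bone-forming cells, followed individual mice and not genotype. It had 36, 792 and 2 counts in mAktDKO mice 1, 2 and 3, and 5, 5 and 715 counts in control mice 2, 3 and 4. In CPM these were 2.28, 47.4 and 0.137 against 0.35, 0.365 and 54.1, where the value of mAktDKO mouse 3 lies under the floor of 3 counts. The fitted change was -0.11 with an SE of 1.55. The lower of mAktDKO mouse 2 and control mouse 4 exceeded the highest of the other 4 mice 20.8-fold, the largest such ratio, with no level taken below the floor, among the 11659 genes with at least 20 counts in both. Mmp9 (gelatinase B), made by osteoclasts and leukocytes, was highest in the same 2 mice, with 44, 177 and 23 counts against 21, 17 and 161 counts, a ratio of 3.80. Spp1 (osteopontin), a phosphoprotein of bone that macrophages and tendon also make, was 9.13, 20.3 and 5.97 CPM against 6.43, 4.23 and 35.4 CPM, a ratio of 2.22. Postn (periostin) was 215.2, 394.1 and 145.5 CPM against 76.9, 84.2 and 339.7 CPM, and Tnc (tenascin-C), which is found at the muscle-tendon junction, was 86.7, 135.8 and 85.3 CPM against 38.8, 67.3 and 169.2 CPM. For both, the ratio was near 1.6 (1.58 and 1.57). Timp1, Mmp14, Thbs2 and Lum followed at 1.43, 1.41, 1.32 and 1.19. Altogether these 2 mice held the 2 highest levels in 17 of 63 members with enough counts (27.0%), compared with 5.24% of all genes. The choice of these 2 mice was made on Mmp13 itself after its values were seen, so its own ratio is a description. The 17 members include Mmp13 and Mmp9, so the 27.0% against 5.24% is also a description and not a test.

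Genes outside the set that were highest in the same 2 mice included bone markers. Ibsp (bone sialoprotein) was 2.09, 16.8 and 0 CPM in mAktDKO and 0.769, 2.04 and 30.8 CPM in control muscle. Bglap (osteocalcin) had 5.03 CPM in mAktDKO mouse 2 and 2.5 CPM in control mouse 4, and was at or under 3 counts in the other 4 mice. Sp7 (osterix), the osteoblast transcription factor, had 24 and 19 counts in those 2 mice and at most 3 in any other. Acan (aggrecan) of cartilage was 10.1 and 15.4 CPM in them and at most 3.94 CPM elsewhere. Col2a1, the main cartilage collagen, did not follow, at 41.7, 48.5 and 38.7 CPM against 20.3, 92.2 and 88.0 CPM, and Col9a1 was highest in control mouse 4 (11.8 CPM) but lowest of the 6 mice in mAktDKO mouse 2 (5.39 CPM). The 6 cartilage and bone markers summed to 54.1, 87.2 and 48.3 CPM against 30.4, 104.0 and 149.9 CPM. Their part in the levels of Mmp13, Mmp9, Spp1, Postn and Tnc was not tested.

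Of the 17 members highest in these 2 mice, 11 had a promoter in RefSeq, and 3 of the 11 (Mmp13, Mmp14 and Spp1) held the letters of the Runx core, while the other 8 did not. The promoters of Mmp13 and Spp1, the 2 of these with the highest ratios, are given to show where those letters lie. Runx2, whose protein binds the Runx core, was also highest in these mice (1.90, 8.09 and 1.99 CPM against 2.10, 1.6 and 7.11 CPM). Both are the 250 bases before the RefSeq start site of GRCm38.p6 on the plus strand, at chr9:7272264-7272513 for Mmp13 and chr5:104434861-104435110 for Spp1, with capitals on ACCACA (Runx core) and TGANTCA (AP-1 site).
Mmp13: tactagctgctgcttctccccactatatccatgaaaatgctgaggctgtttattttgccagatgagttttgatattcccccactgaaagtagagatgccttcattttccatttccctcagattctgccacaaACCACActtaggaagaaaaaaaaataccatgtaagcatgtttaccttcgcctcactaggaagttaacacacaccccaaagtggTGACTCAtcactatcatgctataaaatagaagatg
Spp1: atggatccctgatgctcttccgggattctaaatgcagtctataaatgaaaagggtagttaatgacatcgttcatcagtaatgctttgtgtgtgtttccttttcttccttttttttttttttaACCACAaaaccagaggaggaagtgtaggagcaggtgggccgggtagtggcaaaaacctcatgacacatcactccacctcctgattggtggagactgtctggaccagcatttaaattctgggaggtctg
ACCACA lies at -118 to -113 in Mmp13 and at -128 to -123 in Spp1, and TGANTCA at -35 to -29 in Mmp13, without overlap. Promoters were found for 50 of the 76 members. ACCACA was in 6 of these 50 (12%) and in 14.2% of 27025 promoters, TGANTCA in 6 of 50 (12%) and 6.85%, and GGAATG in 4 of 50 (8.0%) and 12.6%. A match is a run of letters and does not show binding.

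**Figure D4:**
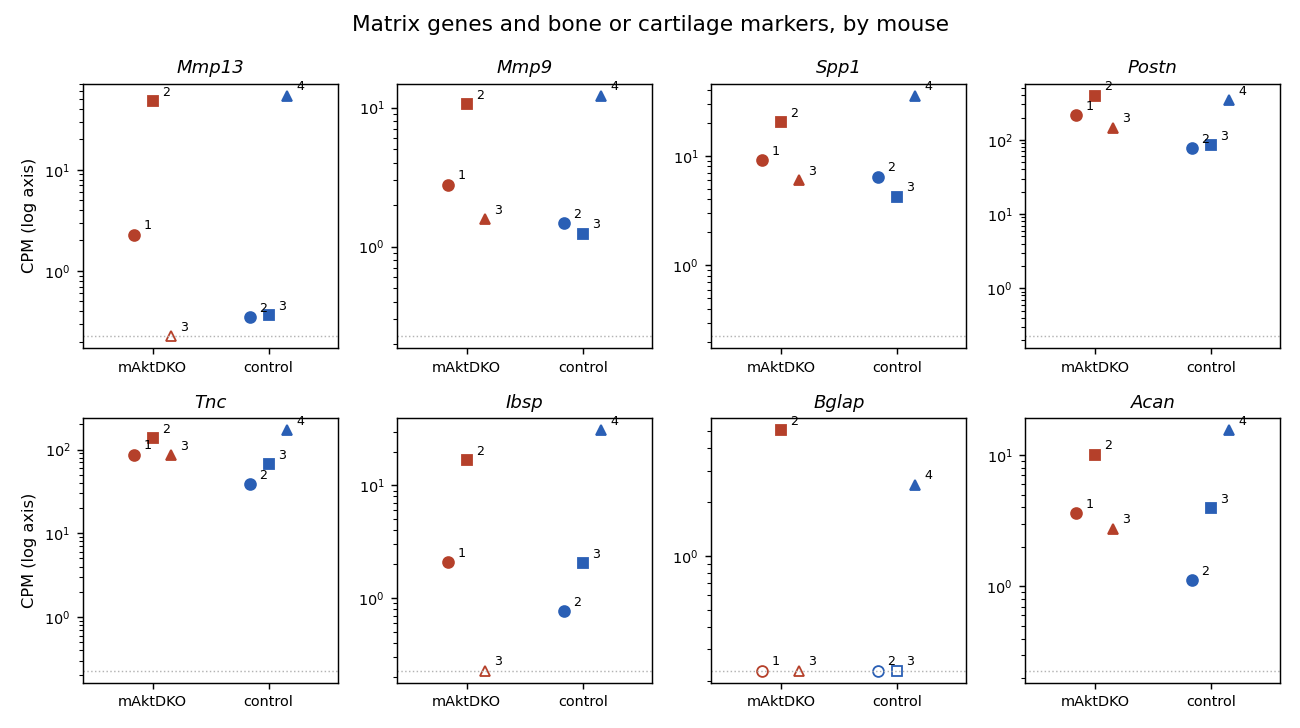
CPM (log axes) of Mmp13, Mmp9, Spp1, Postn and Tnc and of the bone or cartilage markers Ibsp, Bglap and Acan in each mouse (mAktDKO red, control blue, numbers name the mice). The dotted line is the floor of 3 counts, drawn at its highest value over the mice (0.227 CPM), and open symbols on it are mice at or under that level. mAktDKO mouse 2 and control mouse 4 are the highest of their groups in every panel.

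The 4 tissue inhibitors of metalloproteinases were all detected. Timp2 (chr11:118301061-118355411), with 64.7 CPM per kb the most abundant, was 256.4, 303.1 and 292.7 CPM in mAktDKO and 171.4, 208.6 and 280.4 CPM in control muscle (log2 fold change 0.37, SE 0.16, adjusted p = 0.204). Timp3, which stays bound to the matrix, was 185.3, 240.0 and 206.1 CPM against 144.0, 173.8 and 198.8 CPM (0.29, SE 0.13, adjusted p = 0.221). Both overlapped between the groups at control mouse 4. Timp4, the inhibitor enriched in heart and muscle, pointed the other way, at 15.4, 16.0 and 19.4 CPM against 19.0, 20.5 and 21.6 CPM (-0.27, SE 0.12, adjusted p = 0.195). Timp1 was 2.41, 4.61 and 3.22 CPM against 2.31, 2.41 and 6.65 CPM, with the same 2 mice high as for Mmp13. The median of the 4 was 0.076 with all mice and -0.070 without control mouse 2.

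Of 19 Adamts proteases, 16 were tested, and Adamts13, Adamts18 and Adamts19 had between 0 and 5 counts in any mouse. Adamts8 (chr9:30942562-30963838), a secreted protease also known as METH2, was the 1 member that was lower at an adjusted p under 0.05. It was 6.34, 5.51 and 4.18 CPM in mAktDKO and 13.6, 12.4 and 11.8 CPM in control muscle. Both triplets were tight and far apart, with means of 5.35 ± 1.09 and 12.6 ± 0.937 CPM (SD, n = 3 each). The log2 fold change was -1.23 (SE 0.16, 0.425-fold, edgeR adjusted p = 0.0187) with all mice and -1.17 without control mouse 2 (adjusted p = 0.0195). It also passed 0.05 without control mouse 4, but not when control mouse 3 or any 1 of the mAktDKO mice was left out (edgeR adjusted p = 0.056 to 0.125). Its neighbour Adamts15 (chr9:30899155-30922452) did not share the difference, at 23.1 ± 1.69 and 20.6 ± 4.17 CPM (0.16, SE 0.15).

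In this family, 5 of the 16 tested Adamts genes were higher in every mAktDKO mouse than in any control, as were 14.6% of all genes tested. Adamts1 (chr16:85793827-85803113), which cuts versican and aggrecan, was 75.8, 69.6 and 79.2 CPM against 54.3, 61.8 and 54.1 CPM, a gap that did not rest on control mouse 2 (0.40, SE 0.089, adjusted p = 0.0587; 0.37 without that mouse). Adamts17, a protease of the fibrillin microfibril, was 4.75, 4.37 and 3.22 CPM against 1.05, 2.12 and 2.80 CPM, with the largest increase of any member by fold with all 6 mice (1.06, SE 0.32, adjusted p = 0.104). The change was 0.75 without control mouse 2, below that of Ogn. Adamts14 and Adamts2, which remove the amino propeptide of fibrillar procollagens, differed in how far apart the groups were. Adamts14 was 4.85 ± 0.565 and 3.26 ± 0.546 CPM (0.57, SE 0.19, adjusted p = 0.127). Adamts2 was 92.9, 95.2 and 92.2 CPM against 40.7, 81.4 and 89.4 CPM, so that most of its change of 0.41 (SE 0.24, adjusted p = 0.308) came from control mouse 2, and it was 0.13 without that mouse. Adamts10, which binds fibrillin, was 16.4, 12.5 and 12.4 CPM against 8.95, 12.3 and 10.8 CPM, nearly touching. Adamts12, Adamts5, Adamts9, Adamts20, Adamts4 and Adamts16 had fitted changes between 0.25 and 0.59 with overlapping groups, and Adamts3, Adamts6 and Adamts7 lay between -0.09 and 0.08. The median of the 16 was 0.31 with all mice and 0.047 without control mouse 2.

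The Adamts-like proteins lack the protease domain and bind microfibrils. Adamtsl1 (chr4:85513852-86428390) was 22.3, 23.4 and 22.2 CPM in mAktDKO and 14.3, 18.0 and 16.9 CPM in control muscle (0.47, SE 0.11, adjusted p = 0.0608). Adamtsl3 (chr7:82335399-82614450) was 38.4, 35.5 and 38.9 CPM against 26.1, 28.5 and 31.4 CPM (0.39, SE 0.095, adjusted p = 0.0691). Adamtsl5 (chr10:80339793-80349030) ran opposite to these, at 28.2, 27.0 and 26.2 CPM against 40.4, 37.7 and 30.8 CPM (-0.42, SE 0.11, adjusted p = 0.0779). In all 3 the groups did not overlap on the TMM scale, with or without control mouse 2. Of all genes tested, 14.6% were higher and 16.6% lower without overlap with all mice, and 19.2% and 19.5% without control mouse 2. Adamtsl4 was 31.9 ± 2.76 and 35.6 ± 7.68 CPM and Adamtsl2 was 6.74 ± 0.423 and 6.72 ± 2.65 CPM (SD, n = 3 each). Adamtsl2 and Adamtsl4 were among 8 members whose fitted change turned direction without control mouse 2. The other 6 were Tnc, Mmp14, Mmp9, Adamts4, Adamts16 and Adamts7, and each of the 8 had an adjusted p of 0.516 or more with all mice.

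Genes of matrix assembly and turnover outside the set were counted from fixed lists, and with all 6 mice 0 passed an adjusted p of 0.05 in any of them by edgeR. At an unadjusted p under 0.05, where 11.4% of all genes tested were higher and 13.1% lower, 4 of 14 collagen processing genes were higher and 1 lower (median 0.31). Of 14 elastic fibre and microfibril partners, 4 were higher (median 0.23), of 11 other proteoglycans and glycoproteins 4 were higher (median 0.36), and of 14 tested protease regulators 2 were higher and 1 lower (median 0.24). Mfap4, a microfibril-associated protein, had the smallest p of these lists, at 63.6, 64.5 and 65.4 CPM in mAktDKO and 15.8, 34.3 and 35.2 CPM in control muscle (1.18, SE 0.24, adjusted p = 0.0539). It was the 1 gene of these lists to pass 0.05 without control mouse 2 (0.89, SE 0.078, edgeR adjusted p = 0.00324). Of 8 fibrillar collagens 2 were higher (median 0.38, and 0.11 without control mouse 2), and their summed level was 32510, 28120 and 33760 CPM against 10920, 23550 and 27760 CPM. Control mouse 2 was the lowest mouse there too. Of 5 matrix regulators, Tgfb2 and Tgfb3 were higher at an unadjusted p under 0.05 (0.33, SE 0.088, adjusted p = 0.0778, and 0.36, SE 0.12, adjusted p = 0.131).

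Marker lists of several cell types had medians above 0 beside these results. The fast myofibre genes of the labelled muscle were abundant, with Myh4 between 47020 and 55570 CPM, and 7 of 11 fast myofibre markers were lower without overlap (median -0.22), as were 16.6% of all genes tested. The 8 fibroblast and fibro-adipogenic progenitor markers summed to 350 to 401 CPM in mAktDKO and 247 to 350 CPM in control muscle, with 5 of 8 higher at an unadjusted p under 0.05 (11.4% of all genes tested) and a median of 0.36 (0.22 without control mouse 2). Dpp4 was the 1 of these at an adjusted p under 0.05 (0.90, SE 0.16, adjusted p = 0.0474), whereas the defining marker Pdgfra was 86.0, 87.9 and 79.3 CPM against 62.8, 75.6 and 73.9 CPM (0.25, SE 0.094, adjusted p = 0.148). The 8 tendon markers summed to 766 to 861 CPM against 479 to 763 CPM, with a median of 0.54 (0.30 without control mouse 2). Among them Tnmd (tenomodulin) was 72.7, 65.7 and 76.1 CPM against 29.6, 46.5 and 54.5 CPM, and Scx (scleraxis) was 11.1, 10.2 and 10.2 CPM against 9.02, 7.88 and 10.1 CPM. The 8 macrophage markers summed to 115 to 144 CPM against 77.1 to 123.9 CPM (median 0.39, 0.17 without control mouse 2). The neutrophil markers S100a8, S100a9 and Mpo were scarce, between 0 and 4 counts in any mouse, and summed to 0.444, 0.359 and 0.48 CPM against 0.14, 0.292 and 0.0756 CPM. The 5 red cell markers had a median of 0.47 (0.56 without control mouse 2). Hbb-bs (a beta globin) had 370.1, 153.7 and 146.4 counts in mAktDKO mice and 0 in every control (edgeR adjusted p = 0.018), while the similar Hbb-bt, with which it can share reads, was 23.1, 16.2 and 9.74 CPM against 13.2, 13.1 and 9.0 CPM. In the edgeR fit without control mouse 2, the markers that passed 0.05 were Dpp4, Hbb-bs, Kera of the tendon list (0.61, adjusted p = 0.0227), Hba-a2 (an alpha globin; 1.72, adjusted p = 0.0133) and Col2a1, which was lower (-1.07, adjusted p = 0.00348). The 6 adipocyte markers had the highest median of any list with tested genes, 1.02 (0.98 without control mouse 2). With all 6 mice, 5 of them were higher at an unadjusted p under 0.05 (11.4% of all genes tested) and 0 at an adjusted p under 0.05. Their summed levels overlapped between groups. The median was 0.46 for the 6 slow myofibre markers and 0.26 for the 6 Schwann cell markers. It was 0.17 for endothelial, 0.060 for mural and smooth muscle, 0.19 for mast cell and 0.15 for satellite cell markers. Control mouse 2 had the lowest sum of the fibroblast, tendon, macrophage and cartilage and bone lists. The same held for the mast cell, mural and smooth muscle, and Schwann cell lists. The part of these cells in the matrix results was not tested.

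**Figure D5:**
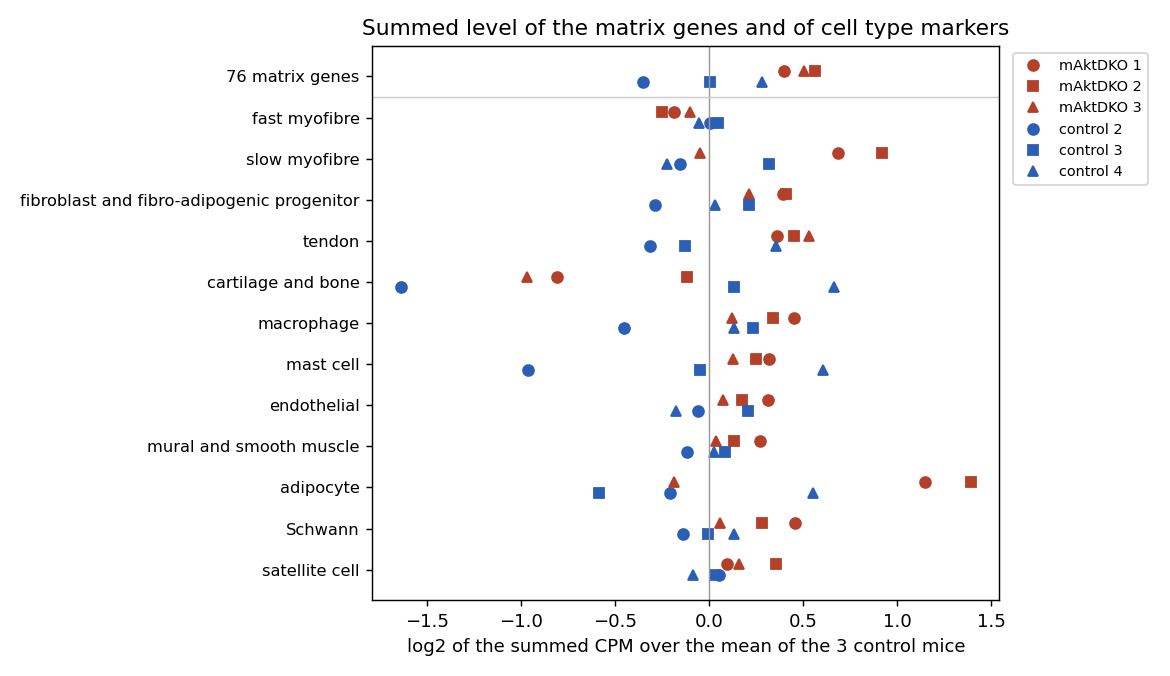
Summed CPM of the 76 matrix genes and of the marker lists, except neutrophil and red cell, in each mouse. Values are log2 of the ratio to the mean of the 3 control mice (mAktDKO red, control blue, symbols name the mice). In the top row the 3 mAktDKO mice lie to the right of all controls, as for the tendon and satellite cell lists. Control mouse 2 lies farthest left in the matrix, fibroblast, tendon, macrophage, cartilage and bone, mast cell, mural and Schwann rows.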

How the data were processed

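Libraries depleted of ribosomal RNA were prepared with a strand-specific kit. Per the study's methods and the submitters' notes, the authors mapped paired-end reads to mm10 with STAR and deposited RSEM 1.3.1 expected counts per gene, unscaled between mice (the STAR version is 2.6.1b in the submitters' notes). RSEM divides reads among similar genes, and 3.36% to 4.09% of a mouse's values were not whole. Here the values were rounded to whole counts. Low genes were removed by filterByExpr at a minimum count of 10. TMM scaling and the quasi-likelihood test of edgeR 4.0.16 in R 4.3.3 were run over all genes, with thresholds of 0.01, from the study's methods, and 0.05. SE is the log2 fold change over the square root of F, and log2 CPM used a prior count of 2. Steps were tested on simulated data. Exon lengths, the merged exons of all annotated transcripts of a gene, came from GENCODE (GRCm38, the sequence of mm10). Promoters came from RefSeq. The members, lists and promoter motifs were chosen with earlier results of these data known. Named genes are, in each role group, the most abundant member and the 3 with the smallest p, members called, not overlapping or turning direction without control mouse 2, members under the filter, and up to 3 genes with the smallest p in each other list, with defining markers. Chad, Lum, Prelp, the remaining overlapping members and genes highest in the same 2 mice as Mmp13 were added after their values were seen. Alternatives were other scalings, DESeq2 1.42.0, no filter, a prior count of 0.5 and leaving out mice.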

Additional observations from a re-analysis of the deposited data

How the results depend on the processing

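At 3 mice a group, edgeR's calls among the matrix genes depended on the processing, and the cause was not tested. Of 2 members at an adjusted p under 0.05, upper-quartile scaling kept 1 (with 120 of all genes) and library totals gave 6 (with 210). These fits tested 64 members among 12892 genes. No filter on low counts gave 4 of 72 members among 17360 genes, and DESeq2's Wald test gave 14 of 71 among 17357. At 0.01 no filter gave 1 and DESeq2 8. Over all genes the counts of 3 and 152 became 338 and 785 with DESeq2, 32 and 381 with no filter, and 0 and 7 without mAktDKO mouse 2 and control mouse 4 together, an alternative chosen after seeing the data, under which 0 members passed 0.05. Leaving out 1 mouse in turn gave 0 to 8 and 3 to 388 genes, 0 to 1 and 0 to 12 members, and 15 to 37 members higher and 2 to 3 lower at an unadjusted p under 0.05, against 6.28% to 12.5% and 8.08% to 13.3% of all genes. Across these leave-one-out fits the median log2 fold change ran from 0.18 to 0.56 for all members, 0.47 to 0.78 for proteoglycans, 0.14 to 0.46 for structural glycoproteins, 0.14 to 0.94 for matricellular proteins, 0.40 to 0.84 for lysyl oxidases, 0.031 to 0.75 for metalloproteinases, -0.070 to 0.47 for tissue inhibitors, 0.047 to 0.41 for Adamts and -0.053 to 0.26 for Adamts-like genes. Without mAktDKO mouse 2 and control mouse 4 together it was 0.73 for proteoglycans, 0.28 for tissue inhibitors and 0.14 for Adamts-like genes, and 36 members were higher without overlap (24.6% of all genes). Scaling by library totals moved the median of all genes from 0.017 to 0.16 and that of the members to 0.45, so that the difference between them stayed at 0.29, and gave medians of 0.45 for Adamts and 0.13 for Adamts-like genes, with 26 members higher and 1 lower without overlap, against 26.5% and 6.92% of all genes. Without control mouse 2, 20 members were higher and 6 lower without overlap (19.2% and 19.5% of all genes).

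Directions turned for members whose fitted change with all mice was near 0 or not much larger than its SE. With mAktDKO mouse 2 and control mouse 4 left out together, Spp1 (0.50), Mmp3 (0.87), Timp1 (0.25), Adamts3 (0.082) and Adamts6 (0.11) turned above 0. Prelp (-0.046) and Mmp11 (-0.17) turned below 0. With control mouse 2 left out, the fitted log2 change was 0.024 for Adamtsl4, -0.20 for Tnc, -0.029 for Mmp14, -0.40 for Mmp9, -0.031 for Adamts4, -0.0091 for Adamts16, -0.27 for Adamts7 and -0.29 for Adamtsl2. Over the leave-one-out fits the changes ran from -0.28 to 0.024 for Adamtsl4, -0.20 to 0.95 for Tnc, -0.059 to 0.71 for Mmp14, -1.16 to 1.89 for Mmp9, -0.031 to 0.83 for Adamts4, -0.0091 to 0.72 for Adamts16, -0.27 to 0.36 for Adamts7 and -0.29 to 0.26 for Adamtsl2. DESeq2 gave -0.0043 for Mmp9 and -0.0029 for Adamtsl2. With no filter Adamtsl2 was -0.00051. The values of named members under the alternatives were counted with the members' median log2 CPM difference at a prior count of 0.5. Of these values, 375 kept their direction and side of the threshold, 29 passed it, 11 no longer did and 18 turned. No paired analysis was possible because control numbers differ between the table (2 to 4) and the labels (1 to 3). Depth limits the 12 members under the filter and scarce enzymes such as Mmp3, with 4 to 25 counts.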

Other observations

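Of the 11659 genes with at least 20 counts in both mAktDKO mouse 2 and control mouse 4, 21 were over 2-fold higher in each of these mice than in any of the other 4 (Mmp13, Mmp9 and Spp1 among them), and 13 were over 3-fold higher (Mmp13 and Mmp9 among them). The genes were chosen after the data were seen. After Mmp13, high ratios belonged to Tnn (tenascin-N; 10.5), Bglap2 (9.33) and Ibsp (8.02), and Bglap is given no ratio because the other 4 mice were at or under 3 counts. Tnn had 107, 1193 and 1 counts in mAktDKO mice 1, 2 and 3 and 2, 4 and 1311 counts in control mice 2, 3 and 4, so that mAktDKO mouse 1 was also well above the remaining 3. Lrrc15, a membrane protein of activated fibroblasts, was 3.04, 17.8 and 2.13 CPM against 0.839, 1.46 and 16.9 CPM, and Cemip, a hyaluronan-degrading protein, had 9, 51 and 6 counts against 3, 4 and 42. Runx2, the transcription factor that directs bone formation, had a ratio of 3.39. Bglap and Bglap2 are near-identical genes among which the counting divides reads, so their separate values are uncertain. Among abundant genes, Col12a1, a fibril-associated collagen of tendon, was 331.9, 716.7 and 306.6 CPM against 132.9, 161.3 and 641.8 CPM, a ratio of 1.93.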
